A study of Homo sapiens with 12 samples.

Results

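The genes described here encode the repair of DNA double-strand breaks and interstrand crosslinks: 49 listed genes of homologous recombination, the Fanconi pathway, end joining and the damage checkpoint, of 61533 gene entries in all. Ensembl identifiers in the count tables were matched to symbols, and all 49 listed genes were found. They were measured in polyadenylated RNA of HMLE cells, a human mammary epithelial line immortalised with telomerase and the SV40 early region, whose large T antigen binds the retinoblastoma and p53 proteins. Per the labels, 4 HMLE-derived lines were made by transgene overexpression and selected with puromycin. The double line carried HORMAD1 and CT83, the HORMAD1 line and the CT83 line carried 1 of these cancer/testis genes each, and the last is labelled control. Each line had 3 libraries, 12 in all. Since no label says whether the 3 were grown as separate cultures, p-values here reflect variation from library to library that can be technical. Because every construct had 1 line, a transgene and a difference between lines cannot be told apart, and less RNA per cell cannot be told apart from fewer cells in the phase that makes it. The question put to these genes was whether their transcripts differed with and without HORMAD1.

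A double-strand break can be cut back to single strands by the MRE11, RAD50 and NBN complex with RBBP8 (CtIP), EXO1, DNA2 and BLM, after which BRCA1, PALB2 and BRCA2 prepare the single strand to copy the sister chromatid. Unresected ends are joined by Ku (XRCC5 and XRCC6), DNA-PKcs (PRKDC), XRCC4 and LIG4, and 53BP1 (TP53BP1) and RIF1 favour that route. The Fanconi core complex ubiquitinates FANCD2 and FANCI at stalled crosslinks. Many recombination genes are transcribed in S phase under E2F, and in dividing epithelial cells their levels follow the share of cycling cells. HORMAD1 is a protein of the meiotic chromosome axis that directs recombination between homologues in the germline. In tumour cells it has been linked to altered break repair.

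HORMAD1 transcript was present at 203 to 346.5 CPM in the 6 libraries of the double and HORMAD1 lines and had 0 counts in the 6 libraries of the CT83 and control lines. CT83 was at 86.7, 101 and 118 CPM in the double line and 400.2, 446 and 724 CPM in the CT83 line, with no overlap, and had 0 counts in the other lines. CPM are counts per 1000000 counts of the TMM-scaled library; the libraries held 9898845 to 14159740 counts. The basal markers KRT5 (2411 to 3130.1 CPM) and TP63 (131 to 158 CPM) and the luminal markers KRT8 and EPCAM were present in all 12 libraries, whereas the luminal keratin KRT19 stayed at or below 1.49 CPM. In 3 libraries (HORMAD1 replicate 1, CT83 replicate 3 and control replicate 2) counts rose with transcript length more steeply than in the others, by 0.079, 0.071 and 0.04 on the log2 scale per doubling of length relative to the mean of all 12, against -0.063 to 0.0042 in the other 9 libraries. The double line had slopes of -0.063, -0.034 and -7.7e-05 in replicates 1 to 3. Its replicate 1 was thus farther from 0 than control replicate 2, on the opposite side. A count of the members' values that moved without the 3 steepest libraries is given after the comparisons.

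The transcripts of 3 members could not be quantified from these tables. RAD51D, a subunit of a complex that promotes strand exchange, was listed at 0 in all 12 libraries, and RAD50, the coiled-coil ATPase of the MRE11 complex, at 0 in 11 libraries with 2 counts in CT83 replicate 2. MCM8, a helicase that works with MCM9, had 1 to 14 counts per library. At the depth of each library a count of 0 allows up to 0.202 to 0.302 CPM (a floor of 3 counts, counting error only). RAD50 (chromosome 5, 132556019 to 132646344, plus strand of GRCh38) and RAD51D (chromosome 17, 35092208 to 35121522, minus strand) lie under longer gene entries on the same strand. Of the 50-base words in the coding sequence of RAD50, 96.7% also occurred in transcripts of AC116366.3, and of those of RAD51D, 61% occurred in transcripts of the read-through entry RAD51L3-RFFL (GENCODE 29). The first shared coding words, which a read cannot assign to either gene, show this.
RAD50 and AC116366.3, coding bases 129 to 178 of RAD50: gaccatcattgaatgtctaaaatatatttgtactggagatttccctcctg
RAD51D and RAD51L3-RFFL, coding bases 81 to 130 of RAD51D: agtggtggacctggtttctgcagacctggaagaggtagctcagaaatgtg

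The entry AC116366.3 held 51 to 87 counts per library, which is 4.87 to 7.15 CPM, and RAD51L3-RFFL 0 to 6 counts. Of all exon bases, AC116366.3 overlapped 79.7% of RAD50, whereas RAD51L3-RFFL overlapped 8.01% of RAD51D. The sources used here do not say how reads on both entries were counted, and whether RAD50 and RAD51D RNA was low or uncounted cannot be told apart. The repair genes CENPS, SHLD3 and BABAM1, outside the list, were also at 0 in all 12 libraries. MCM8 shared 0% of its coding words with another gene of GENCODE 29. RAD54B, a motor protein of the RAD54 family, shared 88.7% of its words with FSBP, yet held 58 to 115 counts per library with 0 counts under FSBP. XRCC6 shared 25.7% of its words on the same strand with other entries, mostly with the pseudogene XRCC6P2 (23.3%), FANCD2 9.01% and the checkpoint kinase CHEK2 8.13%, and their levels are uncertain to that extent. On the opposite strand, XRCC3 shared 37.6% with KLC1, FANCF 23.6% with GAS2 and RAD54L 19.3% with LRRC41. Of all exon bases, opposite-strand entries overlapped, among others, 76.7% of XRCC3 (KLC1), 28.7% of TP53BP1 (TUBGCP4) and 18.7% of FANCL (VRK2). The shares were 16.4% for EME1 (LRRC59) and 13.9% for MUS81 (CFL1). CFL1 held 10205 to 15030 counts per library, against 330 to 503 for MUS81, and LRRC59 6968 to 9297, against 521 to 796 for EME1. Whether the counting used strand is likewise unstated here, and these levels too are uncertain, by an amount that was not measured. The other 46 members passed the low-count filter and entered the tests.

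Promoter windows from RefSeq (GRCh38.p14, 250 bases before to 50 after the start) were found for 43 of the 49 members. An E2F word (TTTCCCGC, TTTCGCGC, TTTGCCGC or TTTGGCGC on either strand) stood in 8 of the 43, which is 18.6%, against 3.31% of 35116 promoters of the same length. CHR words (TTTGAA or TTCGAA), found in promoters of mitotic genes, stood in 6 of 43 (14%) against 16.4%, and CCAAT in 21 of 43 (48.8%) against 34.6%. These are matches of letters, described without a test. The members are all protein-coding, whereas the 35116 promoters were not selected by gene type. A comparison with promoters of protein-coding genes alone was not made. The E2F words of 5 members lay as follows, in capitals, shown as examples of the S-phase word, with FANCC, MCM8 and XRCC6 holding the others.
EXO1 (chr1:241848197-241848226, plus strand): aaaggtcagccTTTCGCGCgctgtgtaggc
FANCA (chr16:89816801-89816830, minus strand): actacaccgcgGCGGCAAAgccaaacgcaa
FANCD2 (chr3:10026424-10026453, plus strand): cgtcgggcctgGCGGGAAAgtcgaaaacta
GEN1 (chr2:17753859-17753888, plus strand): cagttgcggggTTTCGCGCcgccggagtct
XRCC2 (chr7:152676102-152676131, minus strand): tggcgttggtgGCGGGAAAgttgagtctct

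The word began within 21 bases of the start of transcription in EXO1 (the resection exonuclease), GEN1 (a Holliday junction resolvase), FANCD2 and XRCC2 (a strand-exchange factor), and 172 bases before the start in FANCA (a subunit of the Fanconi core). In the comparison of the lines with HORMAD1 against those without, the log2 fold changes of these 5 were 0.14 for EXO1, 0.074 for GEN1, -0.018 for FANCD2, -0.17 for XRCC2 and -0.12 for FANCA, of both signs and none called.

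Levels of the 46 quantified members, as CPM per kb of their longest coding transcript and averaged over the 12 libraries, spanned from 308 for XRCC6 to 0.762 for SLX4, a scaffold of structure-selective nucleases. The Ku subunits stood far above the rest, with XRCC5 at 171, followed by RBBP8 at 35.4, FANCI at 31 and PRKDC at 28.4. Their ranges over the 12 libraries did not overlap between XRCC6 and XRCC5 or between XRCC5 and RBBP8, whereas RBBP8, FANCI and PRKDC overlapped. Among the recombination mediators PALB2 (6.94), BRCA1 (6.8) and BARD1 (6.58), the partner of BRCA1, were close to each other, and BRCA2 was lower at 1.82 per kb. At the low end GEN1 (1.76) and the kinase ATM (0.78) stood next to SLX4, whose library range enclosed that of ATM. End joining held both the highest members and, with LIG4 at 4.7, a member below BRCA1. The lengths are those of annotated transcripts, and which forms these cells made was not tested.

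**Figure D1:**
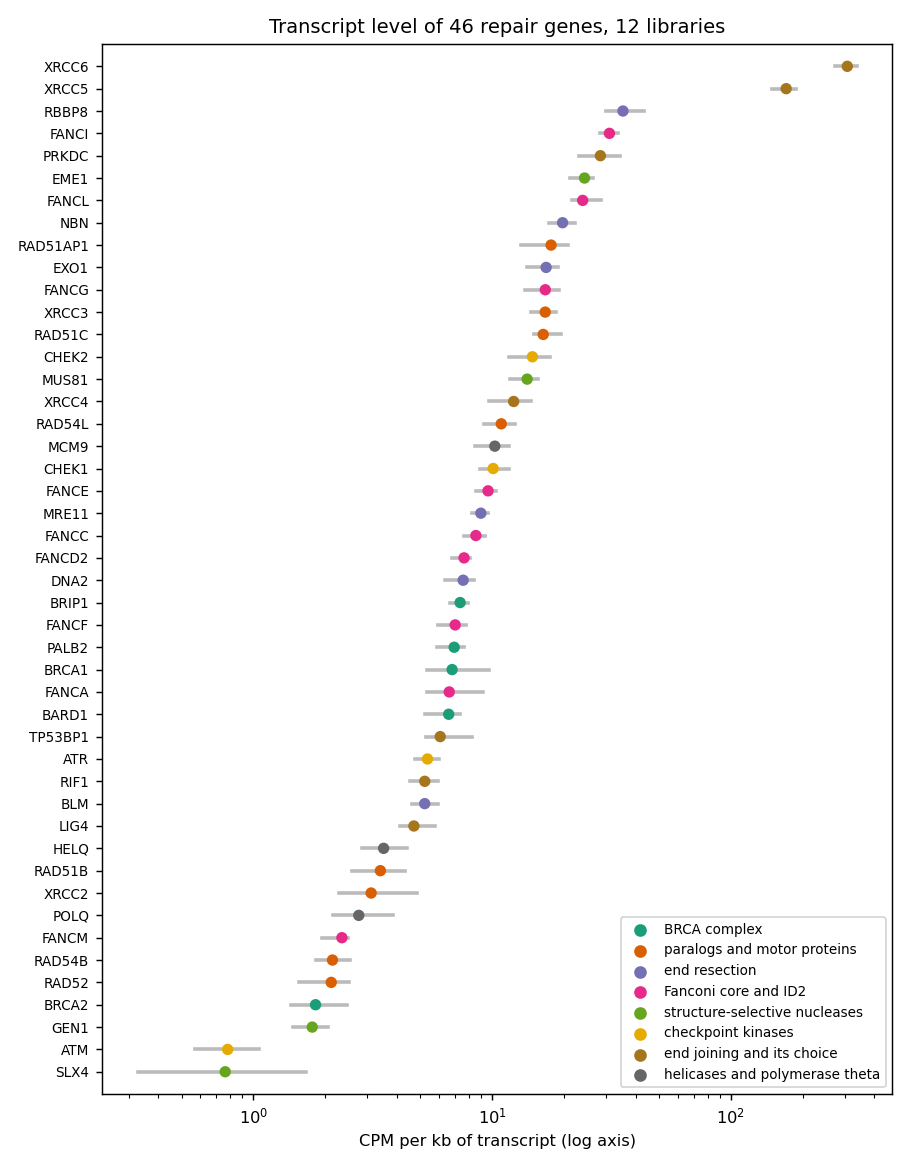
Transcript level of the 46 quantified repair genes on a log axis, in CPM per kb of the longest coding transcript. Points are means of 12 libraries coloured by role and grey bars run from the lowest to the highest library; XRCC6 and XRCC5 lie above all others, and SLX4 and ATM at the bottom.

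No repair gene passed the test for a difference with HORMAD1 among the 46 tested. The main effect sets the mean of the double and HORMAD1 lines against the mean of the CT83 and control lines, 6 libraries against 6. CT83 was lower in the double line than in the CT83 line, so the sides also differ in the level of CT83. That difference cannot be told apart from HORMAD1 here. In edgeR (quasi-likelihood, p adjusted over the 15616 genes tested by Benjamini-Hochberg), 0 members had an adjusted p under 0.05, as against 0.0064% of all genes, which was HORMAD1 itself. DESeq2 also called 0 members, beside 1 of all 15616 genes. At an unadjusted p under 0.05 stood 3 members (6.52%), 2 higher and 1 lower, beside 3.73% of all genes, 1.67% higher and 2.06% lower. Of the 46, 28 had a log2 fold change above 0 and 18 (39.1%) below 0, where 49.2% of all genes lay, with a median of 0.042 beside 0.0027 over all genes tested. The differences seen were small: the 95% intervals of 45 of 46 members lay within 1.5-fold in either direction, of which the farthest bound was -0.48 on the log2 scale, for XRCC2. The exception was SLX4 (log2 fold change -0.28, 95% interval -1.18 to 0.62). No member separated the 6 libraries with HORMAD1 from the 6 without, which 0.0448% of all genes did upward and 0.0512% downward.

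**Figure D2:**
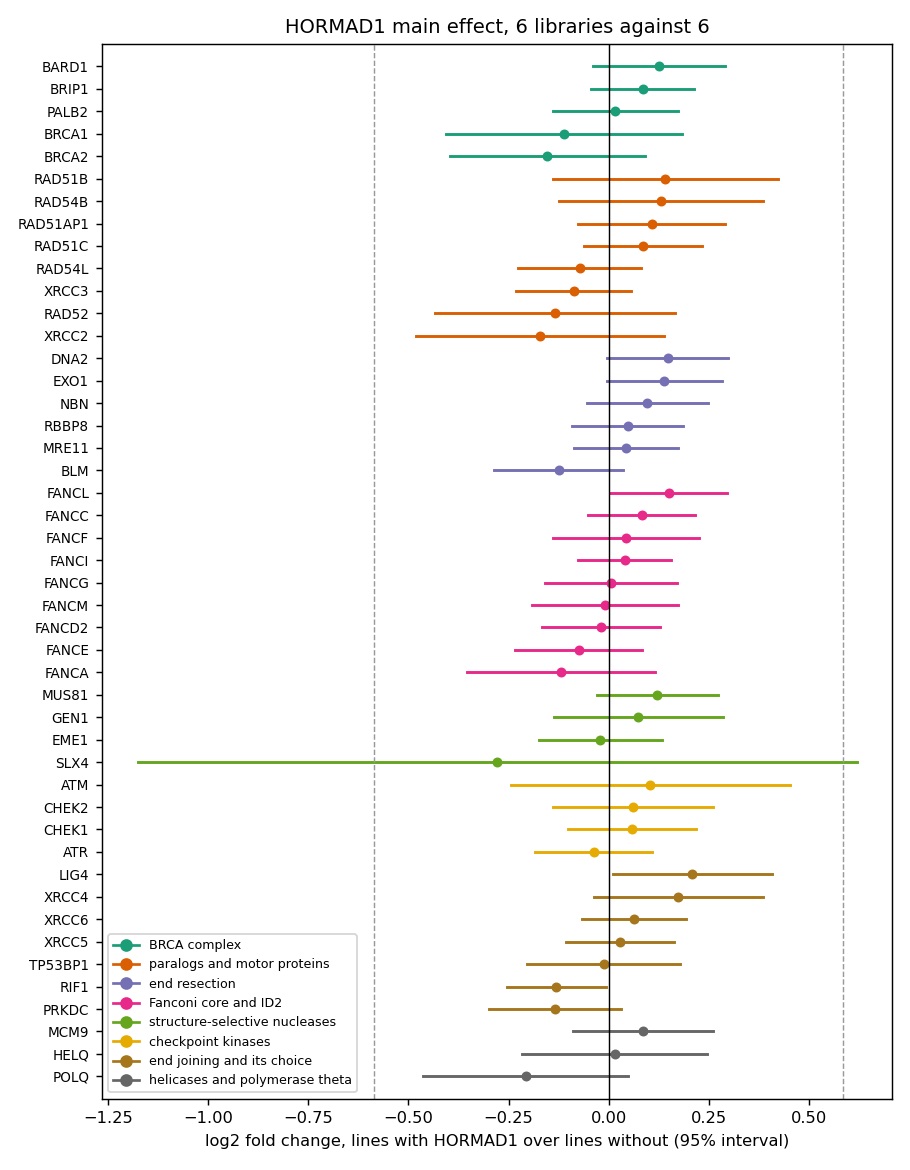
HORMAD1 main effect for 46 repair genes grouped by role, as log2 fold change (points) with 95% intervals (lines); dashed lines mark a 1.5-fold difference in either direction. All intervals but that of SLX4 lie inside the dashed lines, and those of LIG4, FANCL and RIF1 do not include 0 before adjustment.

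BRCA1 and its partners act on resected ends. BRCA1, a ubiquitin ligase and scaffold of recombination, was at 39.8, 41.7 and 46.9 CPM in the double line and 70.3, 47.8 and 39 CPM in the HORMAD1 line. Without HORMAD1 the values were 47.7, 50.8 and 64.6 CPM (CT83 line) and 46.8, 55.4 and 42.5 CPM (control). Its highest libraries were HORMAD1 replicate 1 and CT83 replicate 3, 1 with and 1 without HORMAD1, and the groups overlapped (log2 fold change -0.11, 95% interval -0.41 to 0.18; edgeR adjusted p = 0.907). BRCA2, a mediator of recombination that binds single strands, was at 22.8, 22.4 and 17.2 CPM in the double line and 24.9, 17.2 and 19 CPM in the HORMAD1 line. In the lines without HORMAD1 it stood at 23.1, 24.2 and 29.5 CPM (CT83 line) and 22, 22 and 17.7 CPM (control), with CT83 replicate 3 highest and overlapping groups (log2 fold change -0.15, 95% interval -0.40 to 0.09). PALB2, the link between BRCA1 and BRCA2, was at 30.6, 28.3 and 26.4 CPM in the double line and 27.4, 27.5 and 27.4 CPM in the HORMAD1 line. The CT83 and control lines gave 23.5, 28.9 and 27.4 CPM (CT83 line) and 28.1, 28.3 and 29.7 CPM (control) (log2 fold change 0.017, 95% interval -0.14 to 0.17). Of the 5 genes of this group, 3 had values above 0 and 2 below, between -0.15 and 0.13, and 0 reached an unadjusted p under 0.05.

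The paralog complexes and motor proteins promote strand exchange. RAD51C, shared by both paralog complexes, was at 50.2, 41.6 and 47.2 CPM in the double line and 39.6, 41.4 and 42.6 CPM in the HORMAD1 line. Set against these were 41.6, 39.6 and 40.5 CPM (CT83 line) and 46.3, 38.9 and 39.9 CPM (control) (log2 fold change 0.086, 95% interval -0.061 to 0.23). Double replicates 1 and 3 were highest, and double replicate 2 lay among the other lines. RAD51AP1, which stimulates strand invasion, was at 41.2, 34.8 and 44.9 CPM in the double line and 39.6, 37.9 and 39.4 CPM in the HORMAD1 line. The lines lacking HORMAD1 were at 36.8, 39.9 and 28.6 CPM (CT83 line) and 40.5, 38.3 and 36.8 CPM (control). CT83 replicate 3 was lowest and double replicate 3 highest, with overlap between the groups (log2 fold change 0.11, 95% interval -0.077 to 0.29). Among the 8 tested genes of this group 4 lay above 0 and 4 below, from -0.17 for XRCC2 to 0.14 for RAD51B, and 0 reached an unadjusted p under 0.05.

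Of the 6 tested resection genes, 5 had values above 0 and BLM, the Bloom helicase, was below (log2 fold change -0.13, 95% interval -0.29 to 0.036). RBBP8, which starts resection with the MRE11 complex, was at 143, 127 and 118 CPM in the double line and 100.1, 108 and 116 CPM in the HORMAD1 line. Against these stood 116, 113 and 98.5 CPM (CT83 line) and 120.4, 115 and 123 CPM (control). Double replicates 1 and 2 were highest, and the means of the double and HORMAD1 lines lay on opposite sides of the control mean (log2 fold change 0.048, 95% interval -0.091 to 0.19). EXO1, the exonuclease of long-range resection, was at 65.3, 65.5 and 57.1 CPM in the double line and 53, 64.3 and 62.5 CPM in the HORMAD1 line. Its levels without HORMAD1 were 55.1, 48.5 and 52.9 CPM (CT83 line) and 58.8, 59.4 and 59.7 CPM (control). CT83 replicates 2 and 3 and HORMAD1 replicate 1 were the low ones (log2 fold change 0.14, 95% interval -0.0046 to 0.28; unadjusted p = 0.0569, edgeR adjusted p = 0.899). MRE11, the nuclease of the complex, was at 62.8, 59.5 and 66 CPM in the double line and 66.1, 65.8 and 56.7 CPM in the HORMAD1 line. Lines without HORMAD1 had 63.6, 59.2 and 59.96 CPM (CT83 line) and 59.2, 60.4 and 63.5 CPM (control). Its 12 libraries spanned 56.7 to 66.1 CPM, with overlapping groups (log2 fold change 0.043, 95% interval -0.087 to 0.17).

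Within the Fanconi group 5 of 9 genes lay above 0 and 4 below. FANCL, the ubiquitin ligase subunit of the core complex, was at 45.3, 39.1 and 48.5 CPM in the double line and 42.2, 39.5 and 42.3 CPM in the HORMAD1 line. These compare with 36.8, 42 and 38.6 CPM (CT83 line) and 37.2, 37.7 and 39.2 CPM (control). Of the 6 libraries without HORMAD1, CT83 replicate 2 and control replicate 3 reached the range of those with it (log2 fold change 0.15, 95% interval 0.0038 to 0.30; unadjusted p = 0.045, edgeR adjusted p = 0.899). FANCD2, the substrate of that ligase, was at 42.1, 35.4 and 42 CPM in the double line and 41.7, 36.1 and 40.2 CPM in the HORMAD1 line. Libraries without HORMAD1 had 39.9, 41.3 and 39.5 CPM (CT83 line) and 41.7, 40.7 and 37.4 CPM (control), with overlapping groups (log2 fold change -0.018, 95% interval -0.17 to 0.13). Its partner FANCI was more abundant, at 139, 139 and 152 CPM in the double line and 159, 157 and 149.9 CPM in the HORMAD1 line. Without HORMAD1 the values were 145, 134 and 155 CPM (CT83 line) and 139, 153 and 143 CPM (control) (log2 fold change 0.041, 95% interval -0.075 to 0.16). The highest FANCI library was HORMAD1 replicate 1 and the lowest CT83 replicate 2.

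SLX4 varied most of all tested members, at 2.4, 4.91 and 4.73 CPM in the double line and 11.2, 3.37 and 3.07 CPM in the HORMAD1 line. In the lines without HORMAD1 it stood at 3.94, 7.18 and 12.1 CPM (CT83 line) and 3.79, 6.21 and 3.88 CPM (control). Its highest libraries, CT83 replicate 3 and HORMAD1 replicate 1, stood apart from the others, and the SD between libraries of a line was 0.73 on the log2 scale, against a median of 0.12 over the tested members and 0.16 over all genes with a mean log2 CPM above 2. The nuclease subunits it binds were steadier: MUS81 spanned 28.5 to 37.2 CPM (log2 fold change 0.12, 95% interval -0.03 to 0.27) and EME1 49.7 to 62.3 CPM (log2 fold change -0.02, 95% interval -0.17 to 0.13). GEN1 was at 16.5, 16.8 and 20.3 CPM in the double line and 19.6, 16.8 and 16.8 CPM in the HORMAD1 line. The CT83 and control lines gave 14.5, 16.4 and 16.7 CPM (CT83 line) and 15.1, 19.3 and 19.7 CPM (control), with double replicate 3 highest and CT83 replicate 1 lowest (log2 fold change 0.074, 95% interval -0.14 to 0.29).

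Among the checkpoint kinases, ATM, which senses breaks, was at 7.9, 9.82 and 12.8 CPM in the double line and 13.8, 11.7 and 7.46 CPM in the HORMAD1 line. Set against these were 9.51, 10.5 and 13.9 CPM (CT83 line) and 8.34, 9.88 and 7.58 CPM (control). The high libraries were CT83 replicate 3, HORMAD1 replicate 1 and double replicate 3, and the groups overlapped (log2 fold change 0.10, 95% interval -0.24 to 0.45). CHEK1, the kinase that ATR activates at stalled forks, was at 42.4, 40.6 and 44.6 CPM in the double line and 36.8, 49 and 43.6 CPM in the HORMAD1 line. The lines lacking HORMAD1 were at 40.7, 37.6 and 40.1 CPM (CT83 line) and 42.6, 39.95 and 45.8 CPM (control), highest in HORMAD1 replicate 2 and lowest in HORMAD1 replicate 1 (log2 fold change 0.059, 95% interval -0.10 to 0.22). ATR and CHEK2 had log2 fold changes of -0.037 and 0.061, and 0 of the 4 kinases reached an unadjusted p under 0.05.

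Of the 3 members with an unadjusted p under 0.05 (6.52%, beside 3.73% of all genes), 2 were end-joining genes, with opposite signs. LIG4, the ligase that seals the ends, was at 18.5, 20.6 and 24.2 CPM in the double line and 17.9, 21.8 and 23.6 CPM in the HORMAD1 line. Against these stood 17.7, 18.6 and 18.7 CPM (CT83 line) and 17.1, 19 and 18.3 CPM (control). The 4 highest libraries were of the double and HORMAD1 lines, while double replicate 1 and HORMAD1 replicate 1 lay among those without HORMAD1 (log2 fold change 0.21, 95% interval 0.01 to 0.41; unadjusted p = 0.0406, edgeR adjusted p = 0.899). XRCC4, its partner, had a log2 fold change of 0.17 (95% interval -0.038 to 0.39). RIF1, which holds back resection together with 53BP1, was at 68.1, 71.5 and 75.1 CPM in the double line and 80.9, 79.1 and 74.6 CPM in the HORMAD1 line. Its levels without HORMAD1 were 77, 79.97 and 89.3 CPM (CT83 line) and 81, 85.3 and 78.8 CPM (control). Double replicates 1 and 2 and HORMAD1 replicate 3 were the low ones, and the groups overlapped (log2 fold change -0.13, 95% interval -0.25 to -0.0068; unadjusted p = 0.0399, edgeR adjusted p = 0.899). Without the 3 libraries steep on transcript length, the log2 fold changes were 0.29 for LIG4 (edgeR adjusted p = 0.252) and -0.095 for RIF1 (edgeR adjusted p = 0.506). An offset on transcript length gave -0.055 for RIF1. PRKDC was at 312, 355 and 357 CPM in the double line and 460.1, 357 and 356 CPM in the HORMAD1 line. Lines without HORMAD1 had 412, 399 and 465 CPM (CT83 line) and 372, 416 and 348 CPM (control), lowest in double replicate 1 and highest in CT83 replicate 3 (log2 fold change -0.13, 95% interval -0.30 to 0.031). Of the Ku subunits, XRCC5 was at 708, 652 and 635 CPM in the double line and 561, 672 and 664 CPM in the HORMAD1 line. These compare with 670.4, 635 and 578 CPM (CT83 line) and 641, 622 and 667 CPM (control), with overlapping groups (log2 fold change 0.029, 95% interval -0.11 to 0.16). XRCC6, the other subunit, was at 912, 868 and 853 CPM in the double line and 752, 863 and 865 CPM in the HORMAD1 line. Libraries without HORMAD1 had 862, 805 and 741 CPM (CT83 line) and 844, 783 and 860.3 CPM (control). CT83 replicate 3 and HORMAD1 replicate 1 were lowest and double replicate 1 highest (log2 fold change 0.062, 95% interval -0.068 to 0.19).

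MCM9, whose helicase with MCM8 has been reported to bind HORMAD1 in tumour cells, was at 55.1, 52.3 and 58 CPM in the double line and 45.2, 59.8 and 53.4 CPM in the HORMAD1 line. Without HORMAD1 the values were 53.8, 52.6 and 43.2 CPM (CT83 line) and 55.5, 46.9 and 52.7 CPM (control). HORMAD1 replicate 1 and CT83 replicate 3 were the lowest and the groups overlapped (log2 fold change 0.085, 95% interval -0.09 to 0.26). POLQ, the polymerase of microhomology-mediated joining, was at 19.5, 23 and 21.6 CPM in the double line and 31.3, 22 and 21.9 CPM in the HORMAD1 line. In the lines without HORMAD1 it stood at 22.8, 26.9 and 34.7 CPM (CT83 line) and 23.8, 29.5 and 23.3 CPM (control), with CT83 replicate 3 and HORMAD1 replicate 1 highest (log2 fold change -0.21, 95% interval -0.46 to 0.049). HELQ, a helicase of strand annealing, had a log2 fold change of 0.015. MCM8 counts were 5, 6 and 1 in the double line, 2, 14 and 6 in the HORMAD1 line, 10, 6 and 8 in the CT83 line and 4, 7 and 8 in control, too few for a comparison.

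**Figure D3:**
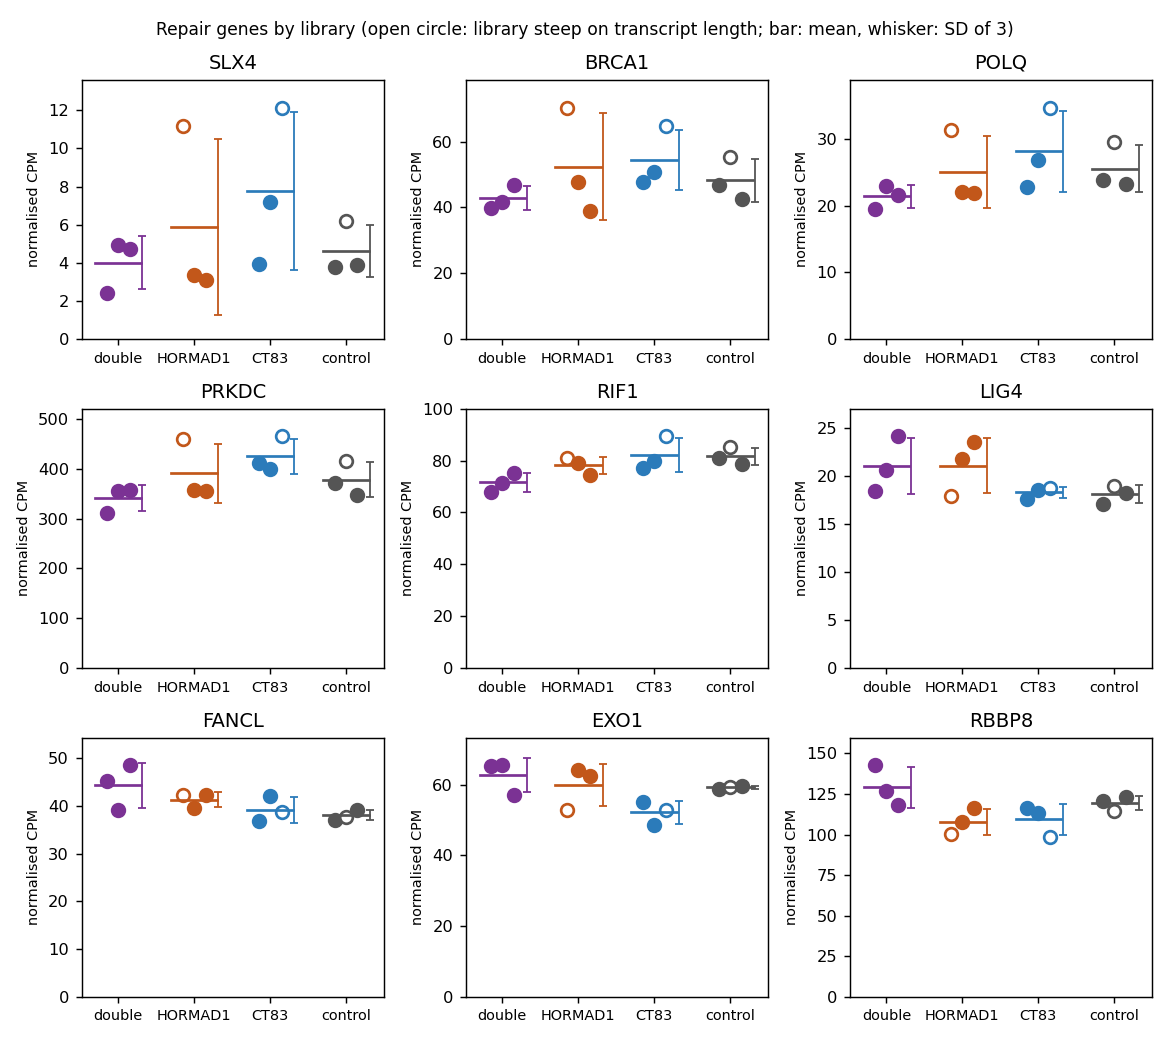
Normalised CPM of 9 repair genes in each library of the double, HORMAD1, CT83 and control lines (points), with the mean (bar) and SD (whisker) of 3. Open circles are the libraries steep on transcript length; they are the highest of their line for SLX4, BRCA1, POLQ and PRKDC and the lowest of their line for RBBP8.

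Each line was then compared by itself, in comparisons that share libraries, and DESeq2 called 0 members in each. Over all genes DESeq2 called 2 in the HORMAD1 line and 1 in the CT83 line against control. For the double line it called 5 against control and 3 against the CT83 line. In the HORMAD1 line against control, 0 of 46 members were called by edgeR (0.0064% of all genes), and 0 reached an unadjusted p under 0.05, beside 1.82% of all genes (0.993% higher and 0.826% lower). Below 0 lay 21 members (45.7%), beside 48% of all genes. The median log2 fold change of the members was 0.012, with 0.0052 over all genes. In the CT83 line against control the counts were also 0 called (0.0064% of all genes) and 0 at an unadjusted p under 0.05 (2.74% of all genes, 1.45% higher and 1.29% lower), with 25 members (54.4%) below 0, beside 48.4% of all genes, and a median of -0.01 beside 0.006. In the double line against control 0 members were called (0.0256% of all genes), and 2 members (4.35%) had an unadjusted p under 0.05, 1 higher and 1 lower, beside 5.56% of all genes (2.72% higher and 2.84% lower). Below 0 lay 20 members (43.5%), beside 50.3% of all genes. Those with an unadjusted p under 0.05 were FANCL, at 44.3 ± 4.78 CPM in the double line and 38 ± 1.05 CPM in control (SD, n = 3 each; log2 fold change 0.22, 95% interval 0.014 to 0.43; edgeR adjusted p = 0.87), and RIF1, at 71.5 ± 3.52 CPM and 81.7 ± 3.33 CPM in the same lines (log2 fold change -0.19, 95% interval -0.37 to -0.016; edgeR adjusted p = 0.865). The 3 double libraries of RIF1 lay below the 3 controls, while for FANCL double replicate 2 lay within the controls. The share of all genes with such a separation was not counted, and in genes picked by their p it is partly built in. With the offset on transcript length RIF1 was at -0.094.

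The comparison of the double line with the CT83 line, lines that differ in HORMAD1 and also in the level of CT83, had the most members at an unadjusted p under 0.05: 6 of 46 (13%), 2 higher and 4 lower, beside 8.05% of all genes, 3.19% higher and 4.86% lower. Below 0 lay 20 members (43.5%), beside 50.2% of all genes. By edgeR 0 members were called, beside 0.0064% of all genes. HORMAD1 and the level of CT83 cannot be told apart here. The higher values were those of the resection genes RBBP8, at 129 ± 12.5 CPM in the double line and 109 ± 9.47 CPM in the CT83 line (log2 fold change 0.24, 95% interval 0.044 to 0.44), and EXO1, at 62.6 ± 4.81 CPM and 52.2 ± 3.36 CPM in these lines (log2 fold change 0.26, 95% interval 0.061 to 0.47; SD, n = 3 each). In both genes the 3 double libraries lay above the 3 CT83 libraries. The share of all genes that separated these lines in this way was not counted. The lower values were those of PRKDC (log2 fold change -0.32, 95% interval -0.55 to -0.083), RIF1 (log2 fold change -0.20, 95% interval -0.37 to -0.023), FANCA (log2 fold change -0.34, 95% interval -0.68 to -0.011) and POLQ (log2 fold change -0.39, 95% interval -0.76 to -0.029). The edgeR adjusted p was 0.585 for all 6 genes. PRKDC stood at 341 ± 25.6 CPM in the double line and 425 ± 35.1 CPM in the CT83 line, with no overlap of the libraries. RIF1 also separated these lines, whereas the libraries of FANCA and POLQ overlapped. These separations were likewise not counted over all genes, and in genes picked by their p they are partly built in. For the 4 lower genes the highest CT83 library was replicate 3, which is steep on transcript length. Without the 3 steep libraries the log2 fold change was -0.25 for PRKDC (edgeR adjusted p = 0.0774), -0.13 for RIF1, -0.16 for FANCA and -0.22 for POLQ. Double replicate 1, which had the lowest slope on transcript length (-0.063), stayed in that fit. With libraries left out singly, the unadjusted count of 6 became 1 without double replicate 1 (beside 4.21% of all genes), 3 without CT83 replicate 3 (5.62%) and 12 without HORMAD1 replicate 1 (15.1%). It was 9 when only these lines were fitted (11.7%). Without the 3 steep libraries RBBP8 and EXO1 stood at 0.17 and 0.28. With CT83 replicate 3 alone left out, FANCA was at -0.17 and POLQ at -0.22. With the offset on transcript length RIF1 was at -0.03 and PRKDC at -0.16.

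Whether HORMAD1 and CT83 together gave more or less than the sum of each was tested as an interaction on the log2 scale. CT83 was lower in the double line than in the CT83 line, and an interaction cannot be told apart from that difference in CT83 level. There, 0 members were called by edgeR, beside 0% of all genes, and 2 members (4.35%) had an unadjusted p under 0.05, 1 higher and 1 lower, beside 4.5% of all genes (1.78% higher and 2.72% lower). Below 0 lay 21 members (45.7%), beside 51.5% of all genes. DESeq2 called 0 members and 3 of all genes. RBBP8 had the smallest p of the 46 (log2 fold change 0.39, 95% interval 0.11 to 0.66; unadjusted p = 0.00975, edgeR adjusted p = 0.841). Without HORMAD1 replicate 3 the unadjusted count became 7, 1 higher and 6 lower, beside 7.8% of all genes. The log2 fold change of RBBP8 was 0.24 in the double line against the CT83 line and -0.15 in the HORMAD1 line against control. PRKDC was on the other side (log2 fold change -0.36, 95% interval -0.70 to -0.034; edgeR adjusted p = 0.841). Its value was -0.24 without the 3 steep libraries and -0.18 with the offset on transcript length. The intervals were wider here than in the main effect, and 30 of 46 lay within 1.5-fold.

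Several long repair transcripts differed between libraries of the same line. In the 3 libraries steep on transcript length, relative to the other 2 libraries of their lines, the mean log2 difference was 1.19 for SLX4 (7307 bases), 0.47 for BRCA1 (7270 bases), 0.44 for ATM (13147 bases) and 0.44 for POLQ (9055 bases). Of the 13 members with a transcript of at least 6000 bases, 11 were higher in the steep libraries, with a median of 0.19. Among the 19 members under 3500 bases, 12 were lower, with a median of -0.075, and among the 14 between, 5 were higher, with a median of -0.094. The median over all genes was -0.026. Across the 46 members the difference followed log2 length with Pearson r = 0.50 and Spearman rho = 0.52, and r was 0.31 across 12042 other genes. These are descriptions without a test: the values share their libraries, and the 3 libraries were picked by the slope of the other genes on length, so a positive relation is partly built in. The order was not by length alone. XRCC2 (3067 bases) was higher by 0.31, whereas MRE11 (6897 bases) and RIF1, the longest at 15003 bases, had 0.02 and 0.12. The lowest were RAD51B, of a paralog complex, at -0.33 and MCM9 at -0.27. The bounds of 6000 and 3500 bases were set after the values were seen.

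**Figure D4:**
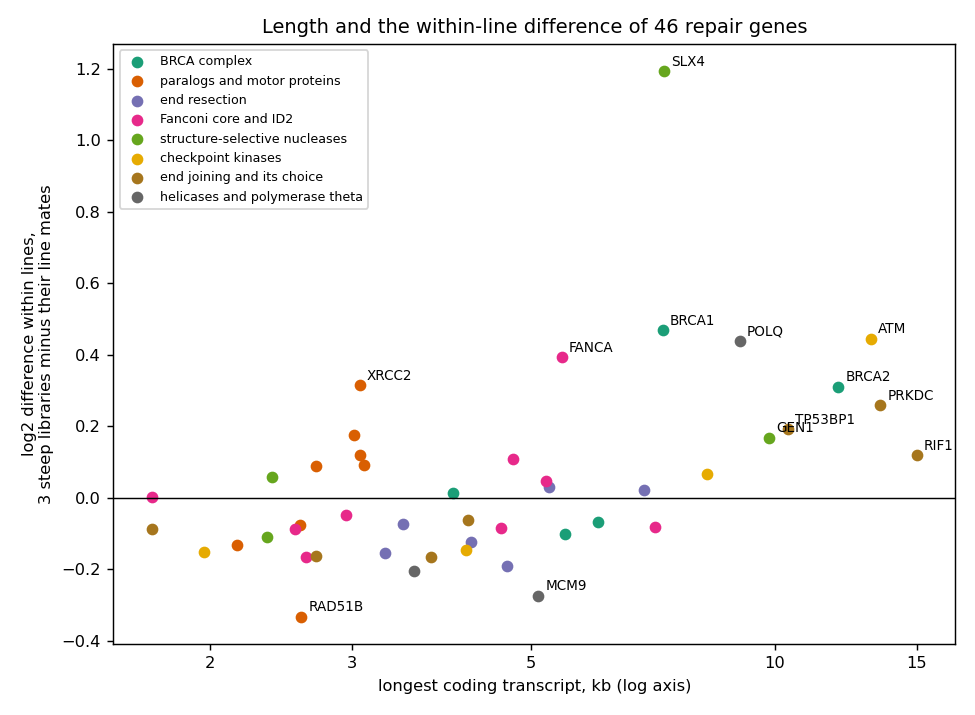
Mean log2 difference of the 3 steep libraries from the other libraries of their lines, against the length of the longest coding transcript in kb (log axis), for 46 repair genes coloured by role. SLX4 lies highest at 1.19 and RAD51B lowest at -0.33; most genes over 6 kb lie above 0.

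Leaving these 3 libraries out together kept the count of called members at 0 in all 6 comparisons by edgeR, while the count over all genes became 5 for the HORMAD1 main effect, 6 for the HORMAD1 line and 119 for the CT83 line against control, 73 for the double line against the CT83 line, 13 for the double line against control and 22 for the interaction. In that fit 5 members had an unadjusted p under 0.05 for the main effect, beside 12% of all genes. They were LIG4 (log2 fold change 0.29), EXO1 (0.19) and MUS81 (0.18) with higher values, and PRKDC (-0.13) and TP53BP1 (-0.12) with lower ones, at edgeR adjusted p of 0.252 to 0.415. Of the 46 main-effect values, 6 changed sign without the 3 libraries, 15 kept their sign and moved by over 1.5 times, and 25 stayed within that. Among those described above, the log2 fold change was then 0.036 for RAD51AP1, -0.081 for XRCC2, 0.091 for RAD51B, 0.026 for RBBP8 and 0.015 for MRE11. In the Fanconi and checkpoint groups it was -0.07 for FANCA, -0.04 for FANCD2, 0.077 for FANCI, 0.094 for CHEK1, -0.065 for ATR and -0.037 for CHEK2. EME1 stood at 0.02 and HELQ at -0.072. HORMAD1 replicate 1 moved the unadjusted count most when left out alone: 12 members then had an unadjusted p under 0.05, 4 higher and 8 lower, beside 17% of all genes, with 0 called (lowest edgeR adjusted p = 0.197).

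Another 64 genes of break and crosslink repair outside the 49, of which 60 were tested, gave the same count of 0 called in each of the 6 comparisons. In the HORMAD1 main effect 33 of the 60 lay above 0 and 27 below, with a median of 0.018. An unadjusted p under 0.05 was reached by 4 of the 60, beside 3.73% of all genes. With higher values these were RAD17, a loader of the checkpoint clamp (0.20, SE 0.08), and MMS22L, which acts at collapsed forks (0.16, SE 0.067), and with lower values the end-joining factors POLM (-0.38, SE 0.16) and PAXX (-0.16, SE 0.07), all with an edgeR adjusted p of 0.899. Genes of S phase (21 tested, median log2 fold change 0.027, 8 below 0) and of G2 and M phase (19 tested, median 0.025, 7 below 0) had 0 called in the main effect too. Summed levels of the 21 S-phase genes were 4124 to 4151 CPM in the double line, 3839.8 to 4258 CPM in the HORMAD1 line, 3857 to 4006 CPM in the CT83 line and 4040.0 to 4196 CPM in control. The CT83 libraries lay below those of the double and control lines, and the HORMAD1 libraries overlapped all others. Summed levels of the G2 and M phase genes were 3154 to 3320.4 CPM in the double line, 3341 to 3597 CPM in the HORMAD1 line, 3209 to 3373 CPM in the CT83 line and 3297 to 3336 CPM in control, where HORMAD1 libraries lay above double libraries. The part of these in the members' values was not tested. Summed levels of 5 luminal markers were 3063 to 3657 CPM in the double line, 3444 to 4454 CPM in the HORMAD1 line, 3296 to 3583 CPM in the CT83 line and 3948 to 4466 CPM in control. The double and CT83 libraries lay below those of control. Of 4 luminal genes tested 3 had lower values at an unadjusted p under 0.05 in the double line against control, beside 2.84% of all genes (median log2 fold change -0.31, 0 called by edgeR). Summed levels of 7 fibroblast markers were 37 to 87.3 CPM in the double line, 25.7 to 45.6 CPM in the HORMAD1 line, 27.5 to 43.8 CPM in the CT83 line and 39.6 to 72.8 CPM in control. Of these, FAP was at 17.1 to 22.5 CPM and COL1A1 at 5.4 to 60.5 CPM over the 12 libraries. The highest library had 6.57 CPM for COL3A1, 2.7 for MFAP5, 1.41 for DCN, 1.31 for LUM and 0.201 for PDGFRA. The part of the luminal and fibroblast markers in the members' values was not tested.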

How the data were processed

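Among tools, the submitters' processing notes name Trimmomatic 0.39, STAR 2.7.5c, Picard and SAMtools, and as builds both hg38 and hg19, with no roles. How reads were assigned to genes, with which annotation and on which strand, is not given in the sources used here. What the authors deposited are expected counts, 1 value per gene and library, partly fractional. They were rounded, although the design had been written for counts, and 6.75% of values changed, by at most 0.5. Identifiers were matched without version numbers. Lengths and coordinates are from GENCODE 29 (GRCh38). No replicate pair agreed within sampling noise (lowest chi-square per degree of freedom 2.54, highest 26.4).

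In R 4.3.3, filterByExpr of edgeR 4.0.16 (minimum count 10) left 15616 genes, scaled by TMM. A robust quasi-likelihood model with 1 mean per line was fitted to all 12 libraries, and p-values were adjusted over all genes. Its main-effect test was tried on simulated counts without a slope on transcript length, so that trial does not cover the slopes seen here. Log2 CPM used a prior count of 2. Intervals are 95% and cover the spread between libraries. Libraries held 9898845 to 14159740 counts. The labels name an ERCC spike-in, and the files held 0 ERCC entries. The alternatives were DESeq2 size factors, DESeq2 1.42.0, no low-count filter, the replicate number as a block, an offset smoothed on transcript length, only the groups compared, and leaving out libraries. Values per library are given for 16 fixed members, for up to 5 members with the smallest p under 0.05 per comparison, for the highest and lowest levels per length and for the largest spread within lines; others were named after their values were seen. The members, lists and the 3 steep libraries were chosen with earlier results of these data known.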

Additional observations from a re-analysis of the deposited data

How the results depend on the processing

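The count of called members was 0 in every comparison under each alternative that gave a value, with DESeq2 and with each library left out included. Over all genes the count ran from 0 to 119 under these alternatives. The 13 values with an unadjusted p under 0.05 kept their sign under each alternative, whereas 110 of all 276 member values changed sign under at least 1 of them. The 13 were picked by their p in the main fit and the alternatives use the same libraries. Their kept signs are therefore partly built in. With a library left out, the median log2 fold changes of the members ran from 0.00925 to 0.0503 for the HORMAD1 main effect (0.00925 without double replicate 1), 0.0227 to 0.0741 for the double line against the CT83 line, 0.0255 to 0.0377 for the double line against control, 0.00655 to 0.0282 for the HORMAD1 line and -0.0141 to 0.00527 for the CT83 line against control, and -0.0117 to 0.0425 for the interaction. An offset on transcript length gave 0.0625 for the double line against control and 0.0421 for the interaction. Fits of only the groups compared exist for the 4 comparisons of single lines. The count over all genes in the double line against control was 4, against 1 to 5 with a library left out, 12 without a low-count filter and 2 under the replicate block, which called 0 members. Same-numbered libraries of different lines did not all deviate together (r of -0.54 to 0.60 over 18 pairs, 6 of them over 0.1). Replicate 1 of the control, CT83 and double lines did so (r of 0.27 to 0.60). Libraries of unlike number were not correlated for reference. The numbers were not taken as pairs in the main fit. RAD50, RAD51D and MCM8 are limited by their counts, SLX4 and ATM by few reads and a wide spread between libraries.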
